A study of Rattus norvegicus with 2 samples.

Results

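The Fc receptors of rat bone mesenchymal stem cells (BMSCs) were followed as 7 genes, namely Fcgr1a, Fcgr2a, Fcgr2b, Fcgr3a, Fcer1g, Fcer1a and Fcgrt. They were found in the annotation of the array by gene identifier or, for Fcer1g, by description. The 7 genes were measured by 8 sequences, out of 24210 genes and 26419 sequences in all. Of these genes, 6 had 1 sequence and Fcgr2a had 2 sequences. The array carries Fcgr2a under its older name Fcgr3 and Fcgr1a under Fcgr1, and both were matched by gene identifier. The sequence taken for Fcer1g carries a provisional locus name and was assigned from its description as the gamma subunit of the IgE receptor.

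In the study, BMSCs flushed from the femur and tibia of Sprague–Dawley rats and kept by adherence were used after a few passages. Treatment was for a day with icariin, the glycoside for which the herb Epimedium is known, or with the solvent DMSO. Each condition was measured on 1 NimbleGen array with Cy3 as the dye, so no difference given here has a replicate check and no test across samples exists. The labels give the animals as female and the methods describe young males, and sex entered no comparison.

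Fc receptors bind the constant part of antibodies and link antibody-coated particles to cells of the immune system. The activating IgG receptors and the IgE receptor consist of a ligand-binding alpha chain and a shared gamma chain, encoded by Fcer1g, whose ITAM motif is phosphorylated by Src family kinases and recruits the kinase Syk. Fcgr2b carries an inhibitory motif instead and recruits the phosphatase SHIP. Fcgrt encodes the neonatal Fc receptor FcRn, which is related to MHC class I, pairs with beta-2 microglobulin and returns IgG and albumin from endosomes to the surface. Macrophages are the cells best known for a full set of IgG receptors, whereas FcRn is also found in many other cells.

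To tell a measured level from background, the 1370 olfactory and vomeronasal receptor genes on the array, which BMSCs have no known use for, served as a silent class. The 95th percentile of this class, called the background level, was 167 on the icariin array and 149 on the DMSO array. Their 99th percentile was 267 on the icariin array and 225 on the DMSO array. Probes of random sequence read 78.4 on the icariin array and 73.8 on the DMSO array. Of all 24210 genes, 10720 lay above the background level on the icariin array, 11604 on the DMSO array and 9275 on both. Intensities are RMA values in arbitrary units on a linear scale, and the log2 difference is icariin minus DMSO.

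The shared gamma chain and the activating receptor Fcgr2a read higher on the icariin array, by 2.08-fold and 1.81-fold, while FcRn read 1.26-fold lower. On the same arrays 10 of 15 macrophage markers were higher by 2-fold or more, and 7 with values raised to the background level. The part of these markers in the readings was not tested. In a bulk sample, more cells of a type and more RNA per cell cannot be told apart. Of the 7 genes, 1 was higher by 2-fold or more, none was lower by 2-fold or more and 6 were neither. Over all genes, 6.51% were higher by 2-fold or more and 7.01% lower by 2-fold or more. At 1.5-fold, 2 of the 7 genes were higher, against 16.4% of all genes. Counts of 1 and 2 among 7 genes are too small to be set apart from those shares. The 4 genes Fcgr2a, Fcgr2b, Fcer1g and Fcgrt lay above the background level on both arrays, and Fcgr1a, Fcgr3a and Fcer1a lay above it on neither. Of all 24210 genes, 9275 lay above it on both arrays, and a count of 4 among 7 is too small to be set apart. The log2 difference was above 0 for 6 of the 7 genes, against 48.5% of all genes, and its median was 0.38, against -0.02 over all genes. That median is the value of Fcgr1a, and Fcgr1a, Fcgr3a and Fcer1a are 3 of the 6 genes above 0. With values raised to the background level, the median of the 7 genes was 0, and Fcgr2a, Fcgr2b and Fcer1g alone were above 0.

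**Figure D1:**
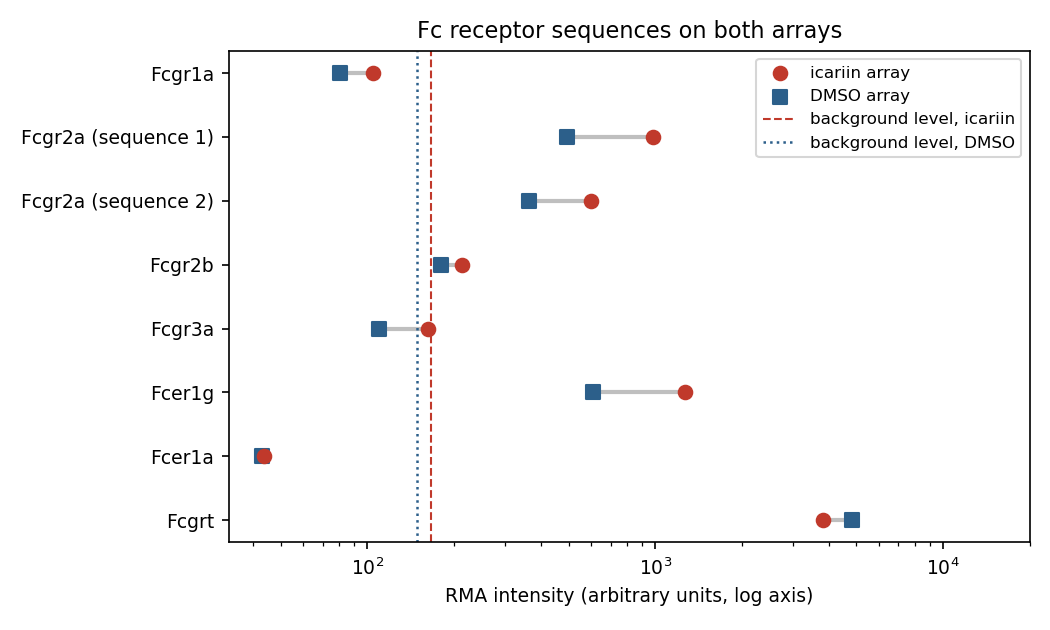
RMA intensity (log axis, arbitrary units) of the 8 Fc receptor sequences on the icariin array (red circles) and the DMSO array (blue squares), with the background level of each array as a vertical line (167 and 149). The sequences of Fcer1g and Fcgr2a lie well to the right of both lines and read higher on the icariin array, Fcgrt is bright on both, and Fcer1a lies far to the left.

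Fcer1g, the signalling chain of the activating receptors, was the member with the largest difference. Its values rest on the single sequence assigned to it from a description. Fcer1g read 1265 on the icariin array and 608 on the DMSO array, which are 7.57 and 4.09 times the background level of each array. The ratio was 2.08 (log2 difference 1.06), just past the 2-fold filter. Among the 9275 genes above the background level on both arrays, of which 2.94% were higher by 2-fold or more, it took place 226 from the top. The genes closest to it in log2 difference among those were Cdk2, Ly6h and Polrmt, at gaps of 0.000994, 0.00119 and 0.00136. This likeness rests on 2 arrays and on a single number per gene, and 50 of the 7820 named genes compared lay within 0.05 of Fcer1g.

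Fcgr2a encodes the low affinity activating IgG receptor that the array calls Fcgr3. Its curated sequence read 986 on the icariin array and 494 on the DMSO array, a ratio of 1.99, and its predicted sequence read 596 on the icariin array and 365 on the DMSO array, a ratio of 1.64. Both sequences were higher with icariin, and neither reached 2-fold. Their log2 differences, 1.00 and 0.71, lay 0.29 apart. In the 656 genes with 2 sequences and levels above the background level on both arrays, the median gap was 0.44, so the sequences of Fcgr2a were closer to each other than in the typical gene. The mean of the gene was 766 on the icariin array and 425 on the DMSO array (log2 difference 0.85), at place 440 of the 9275 genes. A similarly named gene, Fcgr2al1, is listed in the RefSeq gene table and has no sequence of its own on the array, and whether its transcript is read by the probes of Fcgr2a was not tested.

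Promoter sequence was read beside these values. The RefSeq windows of the GRCr8 assembly run from 250 bases before to 50 bases after a gene's start, and they cover 4 of the 7 genes (Fcgr2a with 2 starts, Fcgr3a, Fcer1a and Fcgrt). The letters GAGGAA, the core of sites for the myeloid factor PU.1, were searched on both strands. They occurred in 3 of these 5 windows, and in 27.6% of all 33469 windows of 300 bases. The windows of Fcgr2a (minus strand, chr13:85828636-85828935 and chr13:85826683-85826982) and of Fcgrt (minus strand, chr1:104719977-104720276), the bright member that did not read higher, are printed with each match in capitals.
Fcgr2a, upstream start: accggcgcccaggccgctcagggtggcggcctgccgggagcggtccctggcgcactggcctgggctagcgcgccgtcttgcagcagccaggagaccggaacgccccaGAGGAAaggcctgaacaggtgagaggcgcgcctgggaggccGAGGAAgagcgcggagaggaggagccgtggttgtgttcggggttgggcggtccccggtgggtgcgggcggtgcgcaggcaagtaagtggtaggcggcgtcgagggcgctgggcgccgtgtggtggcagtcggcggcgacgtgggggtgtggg
Fcgr2a, downstream start: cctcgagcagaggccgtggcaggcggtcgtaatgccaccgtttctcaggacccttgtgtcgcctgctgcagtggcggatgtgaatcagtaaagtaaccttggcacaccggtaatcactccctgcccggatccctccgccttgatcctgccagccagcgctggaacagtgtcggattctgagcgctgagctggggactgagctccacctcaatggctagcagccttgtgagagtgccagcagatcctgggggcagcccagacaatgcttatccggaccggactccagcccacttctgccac
Fcgrt: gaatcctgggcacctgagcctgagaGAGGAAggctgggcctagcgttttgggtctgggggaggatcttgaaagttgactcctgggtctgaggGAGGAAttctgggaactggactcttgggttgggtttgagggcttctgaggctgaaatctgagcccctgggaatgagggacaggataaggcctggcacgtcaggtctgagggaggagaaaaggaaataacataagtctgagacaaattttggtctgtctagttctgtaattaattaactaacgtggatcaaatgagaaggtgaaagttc
The upstream window of Fcgr2a and the window of Fcgrt held 2 matches each, and the downstream window of Fcgr2a held none. A match of these letters is a description of the window and not a binding site.

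The other activating IgG receptors were too dim to read a difference. Fcgr3a, a low affinity receptor that the gene table also lists as Fcgr4, read 162 on the icariin array and 110.2 on the DMSO array. The icariin value came close to the background level of 167 without passing it. Fcgr1a, the high affinity IgG receptor, read 105 on the icariin array and 80.3 on the DMSO array, which is inside the range of the silent class on both. Neither array measured these genes above background, so no size of a difference is read from them.

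Fcgr2b, the inhibitory IgG receptor, differed little. It read 213 on the icariin array and 180.2 on the DMSO array, a ratio of 1.18 (log2 difference 0.24). Both values lay above the background level but below the 99th percentile of the silent class, so a background signal cannot be told apart from a low level.

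The IgE side of the family was dim. Fcer1a, the alpha chain of the high affinity IgE receptor of mast cells and basophils, read 43.6 on the icariin array and 43.2 on the DMSO array, below the random probes on both. Ms4a2, the beta chain of the same receptor, read 54.8 on the icariin array and 83.4 on the DMSO array, also below the background level. The gamma chain was thus measured where the alpha and beta chains of the IgE receptor were not above background.

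Fcgrt was bright on both arrays and slightly lower with icariin. It read 3825 on the icariin array and 4817 on the DMSO array, so the DMSO value was 1.26 times the icariin value (log2 difference -0.33). Its place was 6679 of the 9275 genes above the background level on both arrays. B2m, the beta-2 microglobulin that forms the light chain of FcRn, read 11366 on the icariin array and 11552 on the DMSO array, with a log2 difference of -0.02.

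**Figure D2:**
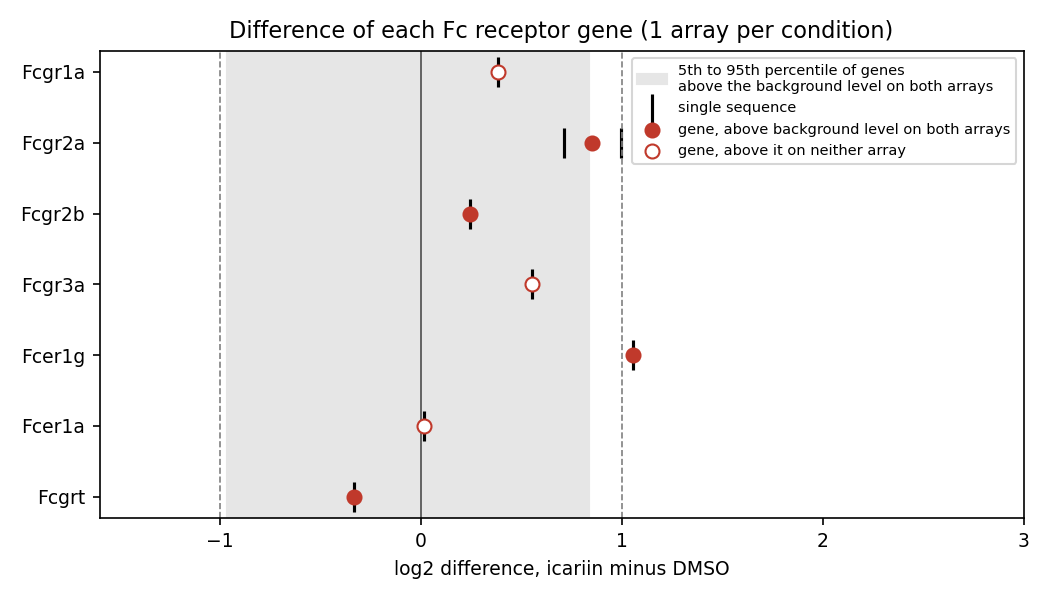
Log2 difference (icariin minus DMSO) of each Fc receptor gene, with ticks for single sequences, filled circles for genes above the background level on both arrays and open circles for genes above it on neither. The grey band spans the 5th to 95th percentile of the 9275 genes above the background level on both arrays (-0.97 to 0.84), and Fcer1g (1.06) and Fcgr2a (0.85) lie to its right.

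**Figure D3:**
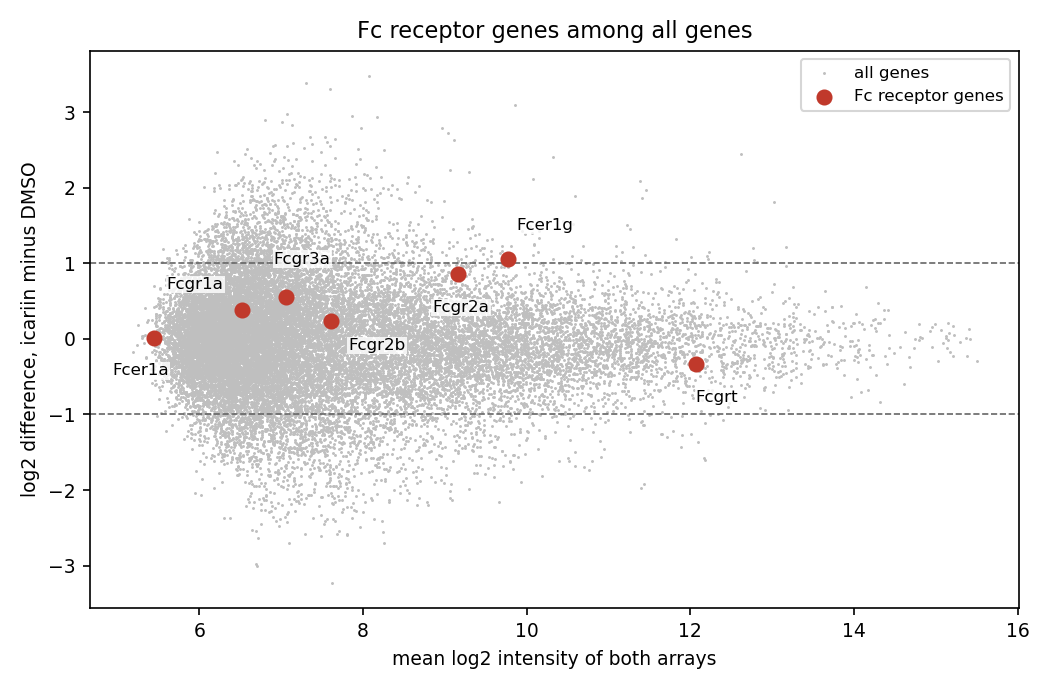
Log2 difference (icariin minus DMSO) against the mean log2 intensity of both arrays, with all 24210 genes in grey and the 7 Fc receptor genes in red. The cloud is wider at low intensity, where Fcgr1a, Fcgr3a and Fcer1a lie. At higher intensity Fcer1g and Fcgr2a sit in its upper part, with other genes above them.

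The nearest 3 measured genes on each side of the receptor genes on chromosome 13 were read for comparison. Fcgr2b, Fcgr3a and Fcgr2a follow each other there in the gene table, and Fcer1g lies further along. Around the IgG receptor genes, none of 6 flanking genes was higher by 2-fold or more and 1 was lower by 2-fold or more. Around Fcer1g, none of 6 flanking genes was higher by 2-fold or more and 2 were lower by 2-fold or more. The shares over all genes were 6.51% higher and 7.01% lower. Counts among 6 genes are too small to be set apart from those shares.

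Adaptor and signalling chains of the same kind as the gamma chain included 2 that were measured as higher. Of 4 such genes, Ms4a2 included, 3 were higher by 2-fold or more, against 6.51% of all genes, and none was lower by 2-fold or more. The median log2 difference was 1.34. With values raised to the background level 2 stayed higher by 2-fold or more and the median was 0.77. Tyrobp, which encodes the ITAM adaptor DAP12 of myeloid and NK cells, read 487 on the icariin array and 138 on the DMSO array, at least 2.91-fold higher when values below 167 are raised to that floor. Cd247, the zeta chain, read 733 on the icariin array and 237 on the DMSO array, 3.09-fold higher. The third was Hcst, an adaptor of NK cell receptors, which read 116 on the icariin array and 55.9 on the DMSO array and was below the background level on both.

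The kinases and linkers that carry the signal of activating Fc receptors were followed in the same way. Of 25 genes, 6 were higher by 2-fold or more, none was lower by 2-fold or more and 19 were neither, with a median of 0.01. Over all genes 6.51% were that much higher and 7.01% that much lower. Syk, the kinase recruited by the ITAM, read 519 on the icariin array and 206 on the DMSO array, 2.52-fold higher. Its values lay above the background level on both arrays.

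Another 4 of the 6 were dim on the DMSO array. Lyn, a Src family kinase, read 239 on the icariin array and 50.8 on the DMSO array, at least 1.43-fold higher. Blnk, a linker protein, was at least 1.42-fold higher, and Plcg2, a phospholipase C, at least 1.05-fold. Lyn, Blnk and Plcg2 did not reach the 99th percentile of the silent class on either array. Vav1, an exchange factor for Rac, read 165 on the icariin array and 60.9 on the DMSO array and was not above the background level on either. With values raised to the floor, 2 of the 25 genes stayed higher by 2-fold or more.

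The other 19 genes of that list did not reach 2-fold, among them genes used in many tissues. Plcg1, the phospholipase C of many tissues, read 1169 on the icariin array and 2150.2 on the DMSO array (log2 difference -0.88). Src read 357 on the icariin array and 506 on the DMSO array (-0.50), and Grb2, an adaptor, read 1905 on the icariin array and 2121 on the DMSO array (-0.16).

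Inhibitory partners were followed as well. None of 10 genes was 2-fold different, against 6.51% higher and 7.01% lower over all genes, and the median was 0.32. With 10 genes, such a count cannot be set apart from those shares. Ptpn6, the phosphatase SHP-1 of blood cells, read 293 on the icariin array and 155 on the DMSO array, a ratio of 1.89. Inpp5d, which encodes the phosphatase SHIP that Fcgr2b recruits, read 174 on the icariin array and 110.04 on the DMSO array, at least 1.04-fold higher. Neither value of Inpp5d reached the 99th percentile of the silent class.

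The actin machinery of phagocytosis was read in the same way. Of 21 genes measured, 1 was higher by 2-fold or more and 2 were lower by 2-fold or more, and the median was -0.02. The shares over all genes were 6.51% higher and 7.01% lower. Counts of 1 and 2 among 21 genes cannot be set apart from those shares. Was, the actin regulator of blood cells, was at least 1.21-fold higher, with 202 on the icariin array and 64.2 on the DMSO array. Neither value reached the 99th percentile of the silent class. Limk1, a kinase of cofilin, was at least 1.94-fold lower, and Elmo1, part of a Rac exchange complex, at least 1.46-fold. Cfl1, which encodes cofilin, read 9969 on the icariin array and 12857 on the DMSO array (-0.37).

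Transcription factors known to act on Fc receptor genes included 1 of 12 that was higher by 2-fold or more and none that was lower by 2-fold or more, with a median of 0.15. The share over all genes was 6.51%, and with values raised to the background level the count was 0. A count of 1 among 12 genes is too small to be set apart from that share. The higher gene was Spi1, which encodes PU.1, with 245 on the icariin array and 111 on the DMSO array, at least 1.47-fold higher. Irf8, a myeloid interferon regulatory factor, read 183 on the icariin array and 139 on the DMSO array. Spi1 and Irf8 did not reach the 99th percentile of the silent class on either array. Runx1, a factor of blood and stroma, read 8108 on the icariin array and 7586 on the DMSO array (0.10).

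Most of the other receptors for immunoglobulins were not above background. Of 11 genes measured, with B2m among them, 1 was higher by 2-fold or more and none was lower by 2-fold or more. The shares over all genes were 6.51% higher and 7.01% lower. Of the 11 genes, 7 were not above the background level on their brighter array. A dim reading is common here, since 10720 of all 24210 genes lay above that level on the icariin array and 11604 on the DMSO array. A count of 7 among 11 genes is too small to be set apart from those shares. The gene higher by 2-fold or more was Fcmr, the IgM receptor of lymphocytes. Fcmr read 202 on the icariin array and 49.3 on the DMSO array, at least 1.21-fold higher. On the icariin array it did not reach the 99th percentile of the silent class. None of 7 receptors that pair with the gamma chain for other ligands, among them Oscar and Clec4e, was above the background level on either array, nor was any of 4 ligand genes measured (Alb, Apcs, Crp and Jchain).

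**Figure D4:**
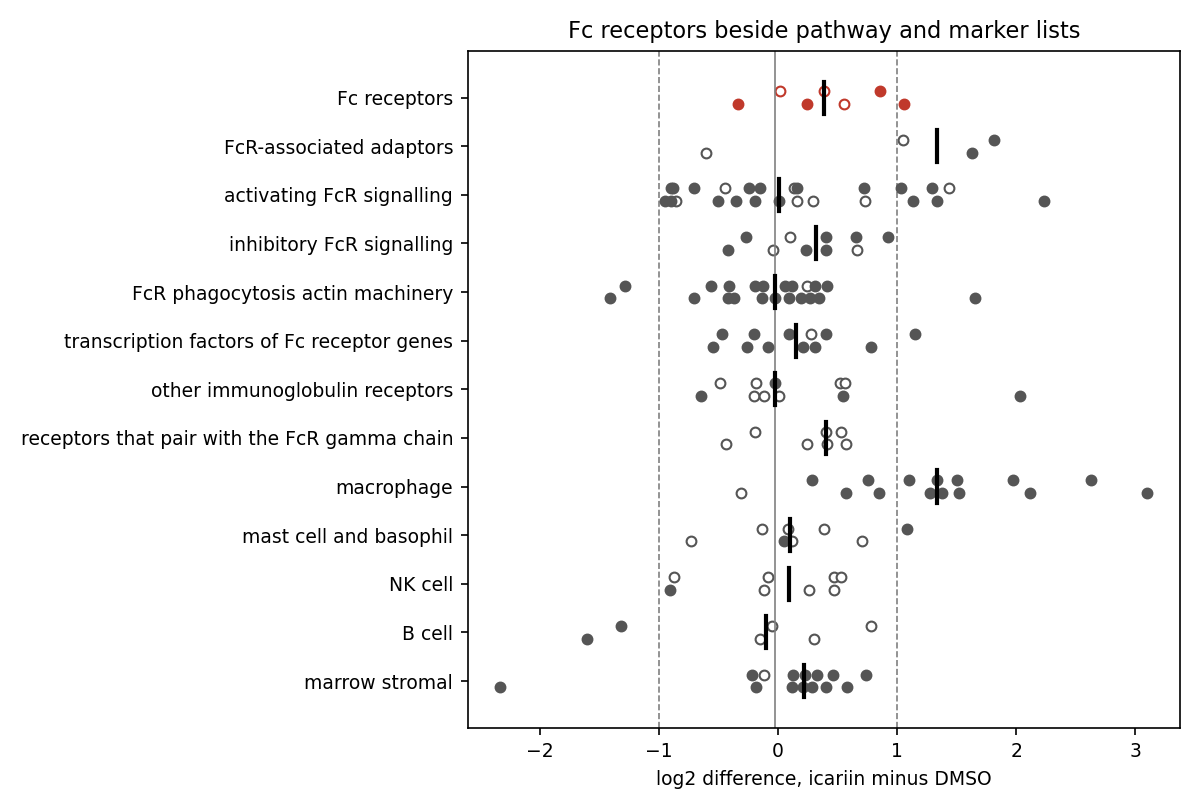
Log2 difference (icariin minus DMSO) of the 7 Fc receptor genes (red) and of the members of 12 pathway and marker lists (grey), with a filled circle for a gene above the background level on its brighter array, an open circle for a gene below it and a bar for the median of the list. The grey line is the median of all genes (-0.02) and dashed lines mark 2-fold. The medians of the macrophage genes (1.33) and adaptors (1.34) lie to the right of the others shown. With values raised to the background level they are 0.98 and 0.77. The pan-leukocyte list is not drawn, and its median was 1.17, or 1.09 with values raised to that level. The median of the Fc receptors (0.38) is the value of a dim gene and is 0 with values raised to the background level, whereas that of the marrow stromal genes is 0.22 either way.

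Markers of the cells that could carry these receptors were read on the same arrays. Of 15 macrophage markers, 10 were higher by 2-fold or more and none was lower by 2-fold or more (median 1.33). Over all genes 6.51% were that much higher and 7.01% that much lower. With values raised to the background level, 7 of the 15 stayed higher by 2-fold or more. Of the 15 markers, 14 lay above the background level on the icariin array and 10 on the DMSO array. Of all 24210 genes, 10720 did so on the icariin array and 11604 on the DMSO array. The summed intensity of the 15 markers was 19493 on the icariin array and 6414 on the DMSO array. Cd68, a lysosomal glycoprotein, read 5597 on the icariin array and 1423 on the DMSO array, and Csf1r, the receptor for the macrophage growth factor, read 1078 on the icariin array and 726 on the DMSO array. Of 8 pan-leukocyte markers, 5 were higher by 2-fold or more and none was lower by that much. With values raised to the background level, 4 of the 8 stayed higher by 2-fold or more. Ptprc read 192 on the icariin array and 91.9 on the DMSO array, at least 1.15-fold higher. Neither value of Ptprc reached the 99th percentile of the silent class.

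Markers of other cells that carry Fc receptors were mostly dim. Dim readings were common over all genes too, with 10720 of 24210 above the background level on the icariin array and 11604 on the DMSO array. Of 8 mast cell and basophil markers, 6 were not above the background level on their brighter array, and the defining genes Cpa3 and Tpsab1 were below it on both arrays. The marker higher by 2-fold or more was Mcpt8, a protease of basophils, with 178 on the icariin array and 83.7 on the DMSO array, at least 1.06-fold higher. Neither value of Mcpt8 reached the 99th percentile of the silent class. Of 9 neutrophil markers, 2 were higher by 2-fold or more and 1 was lower by 2-fold or more. The shares over all genes were 6.51% higher and 7.01% lower. Of the 9 markers, 6 were not above the background level on their brighter array. Elane, the neutrophil elastase, read 225 on the icariin array and 58.9 on the DMSO array, at least 1.35-fold higher. Mmp8, the neutrophil collagenase, read 235 on the icariin array and 83.0 on the DMSO array, at least 1.41-fold higher. S100a8, a calcium-binding protein of neutrophils, read 83.2 on the icariin array and 194 on the DMSO array, at least 1.16-fold lower. These markers moved in both directions, and with values raised to the background level none stayed higher by 2-fold or more. Elane, Mmp8 and S100a8 did not reach the 99th percentile of the silent class on either array. None of 8 NK cell markers was above the background level on the icariin array and 1 was on the DMSO array. Of 6 B cell markers measured, none was above it on the icariin array and 2 were on the DMSO array. Of the 14 marrow stromal markers, 12 lay above the background level on the icariin array and 13 on the DMSO array, with Col1a1 at 39096 on the icariin array and 33819.8 on the DMSO array. None of these 14 was higher by 2-fold or more and 1 was lower by 2-fold or more. The lower marker was Vcam1, with 79.6 on the icariin array and 401 on the DMSO array, at least 2.40-fold lower.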

How the data were processed

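Total RNA of DMSO-treated and icariin-treated BMSCs was measured on 1-colour NimbleGen rat arrays, 1 array per condition. Before deposit, the authors quantile-normalized the intensity values and summarised them with RMA in NimbleScan, whose version is not given in the sources used here. RMA summarises the probes of a sequence, and 26368 of the 26419 sequences had 5 probes. Quantile normalization forces a common distribution, so a shift of all transcripts would not be seen. The number of arrays limits the precision. The standard error column, of unstated scale, was not used.

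Names came from the RefSeq gene table (GRCr8): 20681 by gene identifier, 31 by accession and 1 by description, and 5706 kept the symbol of the array. Log2 values were averaged over the sequences of a gene. A gene was called at 2-fold. The background level is the 95th percentile of olfactory and vomeronasal receptor genes. For a gene not above it on the dimmer array, "at least" marks a ratio in which values below the higher of both levels were raised to it, which is a convention and not a sure bound. The members and lists were chosen with earlier results of these data known. Named were all 7 members, up to 5 list genes past 2-fold and above the background level, the brightest other list gene, a fixed set of partners (Syk, Tyrobp, B2m, Spi1, Inpp5d, Ms4a2, Ptprc, Cd68, Csf1r and Col1a1) and flanking genes. Of these the text gives a selection, some genes are not reported here, and it adds other list genes (Hcst, Vav1, Plcg1, Src, Grb2, Ptpn6, Irf8, Oscar, Clec4e, Cpa3, Tpsab1 and the ligand genes) chosen after their values were seen. The calculation was tested on simulated data with changes well past 2-fold and little noise. That test does not bear on calls near 2-fold, such as that of Fcer1g. Python 3.11.15, numpy 2.4.6 and pandas 2.3.3 were used.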

Additional observations from a re-analysis of the deposited data

How the results depend on the processing

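The fold decides how many Fc receptor genes count as higher, since Fcer1g lies just past 2-fold. At 1.5-fold 2 genes were higher (Fcer1g and Fcgr2a), and at 3-fold there was 0. With 64 added to both values the count was 0 and the log2 difference of Fcer1g was 0.98. The other alternatives were a floor at the background level, the brightest sequence in place of the mean, centring, a loess on level with a span of 0.3, the value table of the series, the 95th or 99th percentile of receptor genes as a filter, and sequences in place of genes. Under each of them 1 gene was higher by 2-fold or more, and under all of the alternatives none was lower by that much. The value table leaves out Fcer1a. The log2 difference ranged from 0.98 to 1.15 for Fcer1g, from 0.77 to 1.00 for Fcgr2a, from 0.18 to 0.34 for Fcgr2b and from -0.33 to -0.24 for Fcgrt.

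With values raised to the background level, fewer list members stayed higher by 2-fold or more, as dim values then set no difference: 2 in the activating list and 0 in the lists of other immunoglobulin receptors, actin machinery, transcription factors, mast cells, neutrophils and endothelium. The medians were then 0.77 for adaptors and 0.98 for macrophage genes. Over members above the background level, the median came to 1.502 for neutrophil genes (3 genes) and -1.46 for B cell genes (2 genes). No paired analysis was possible because each condition has 1 array. A dim gene has only a bound.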
